A study of Mus musculus with 26 samples.

Results

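The genes described here encode the proteins of the cytosolic ribosome. They were taken from the RNA-seq count files as every protein-coding gene whose symbol starts with Rpl or Rps followed by a number, together with Rplp0, Rplp1, Rplp2 and Rpsa, and without the Rps6k kinases and the -ps pseudogenes. This rule found 86 of the 45318 genes in the files, of which 21578 are annotated as protein-coding. By their known roles, 51 of the 86 belong to the large (60S) subunit or are paralogs of its proteins and 33 to the small (40S) subunit. The remaining members are Rpl7l1, a ribosome assembly factor, and Rps19bp1, which binds a ribosomal protein and is not part of the ribosome.

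The study deleted the start of the lncRNA gene MaTAR25 (1200007C13Rik) with CRISPR/Cas9 in 4T1, a triple-negative mammary carcinoma cell line from a BALB/c mouse, and sequenced poly(A)-selected RNA. The libraries were 2 of 4T1 control cells, which carried a Renilla luciferase sgRNA, 3 of the clone MaTAR25 KO1 and 4 of the clone MaTAR25 KO2. Each KO group is a single clone grown from 1 sorted cell. The paper describes its control cells as single-cell clones too, and the labels do not say which of them was sequenced. Both KO clones are compared with the same 2 control libraries. An effect of the deletion therefore cannot be told apart from a difference between clones, also where both KO clones show it. The labels do not say whether libraries of a group came from separate cultures, and p-values therefore measure only the spread between these libraries, which may be technical.

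Ribosomes translate mRNA into protein. The 40S subunit binds the mRNA and reads its codons, and the 60S subunit joins the amino acids and releases the chain through an exit tunnel. Most of these proteins are present in a single copy in each ribosome, and cells make them in matched amounts. Most of these mRNAs begin with a C and a run of pyrimidines, the 5′ terminal oligopyrimidine (TOP) motif, through which mTOR and LARP1 set how strongly they are translated. Poly(A) RNA-seq measures the amount of the mRNA and not its translation.

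The bases around the start site are shown for the members whose mRNA levels the results below turn on, because the TOP motif lies there. Each run is from the RefSeq annotation on GRCm38.p6, holds 10 bases before the start and 16 from the start on, and is written 5′ to 3′ on the gene's strand. Capitals mark a C followed by at least 4 bases that are each C or T, where that C lies within 5 bases of the annotated start on the gene's own strand. A tract that reaches the end of the window is cut there.
Rps27, chr3:90213633-90213658, minus strand: cgctttcgctCCTTTCCggcggtgac
Rps6, chr4:86857352-86857377, minus strand: gaagtcgggcCTCTTTTTCgtgacgc
Rpl12, chr2:32961702-32961727, plus strand: agcaggatccgtCTTTTCggctttcg
Rps24, chr14:24490668-24490693, plus strand: gctggggtcCTTCCTTgcgcgttgat
Rpl27a, chr7:109519185-109519210, plus strand: cgtgagctcCTCCCTTTTCCCTTTCT
Rplp2, chr7:141447641-141447666, plus strand: cagcgtcttcCTTTCgccgccggacg
Rps2, chr17:24720053-24720078, plus strand: gtcgagatctcgcgCTTCTTggagca
Rps7, chr12:28635938-28635963, minus strand: cggtttccacccacctacttccgctg
Rpl4, chr9:64173377-64173402, plus strand: tttcctgtgggagcagccgggtagag
Rps13, chr7:116334175-116334200, minus strand: caaacgtcggtgagtggcgtcacttc

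Such a tract was found at the annotated start of 30 of the 66 members in the RefSeq start table (45.5%), and at 21.2% of the 27025 gene symbols in that table. It was found for 17 of 68 mitochondrial ribosomal protein genes (25%). Rps27, Rps6, Rpl12 and Rps24 above held it and Rps7, Rpl4 and Rps13 did not, which says only that these letters are not in this window. Another annotated start of Rps24, with the window chr14:24490743-24490768, held no such tract. Among the members with no entry were Rpl3, Rpl7, Rpl8, Rpl17, Rpl21, Rpl23a, Rpl29, Rpl30, Rpl32, Rpl36, Rplp1, Rps14, Rps20, Rps27a and Rps29.

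Ribosomal protein genes have many processed pseudogenes, intronless copies of their mRNA elsewhere in the genome, and reads that aligned to several places were not counted. To measure how much of each mRNA this can touch, the spliced main transcript of each member was cut into all windows of 50 bases, and each window was searched for exact matches elsewhere in the GRCm38.p6 chromosomes. The median member had 35.5% of its windows found nowhere else. Under 10% of the windows were unique in 13 members, under 25% in 36 and under 50% in 58. In the 77 mitochondrial ribosomal protein genes, which build a separate ribosome in mitochondria, the median was 99.8%. Rps27, a zinc finger protein of the 40S subunit, had the lowest share at 0.338%, and Rpl36 with 1.5% and Rps6 with 5.31% were also among the lowest. Rps20 had 89.9% unique windows, Rpl4 83.5% and Rps24 75.9%. No source used here gives the read length, and other window lengths gave other shares.

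**Figure D1:**
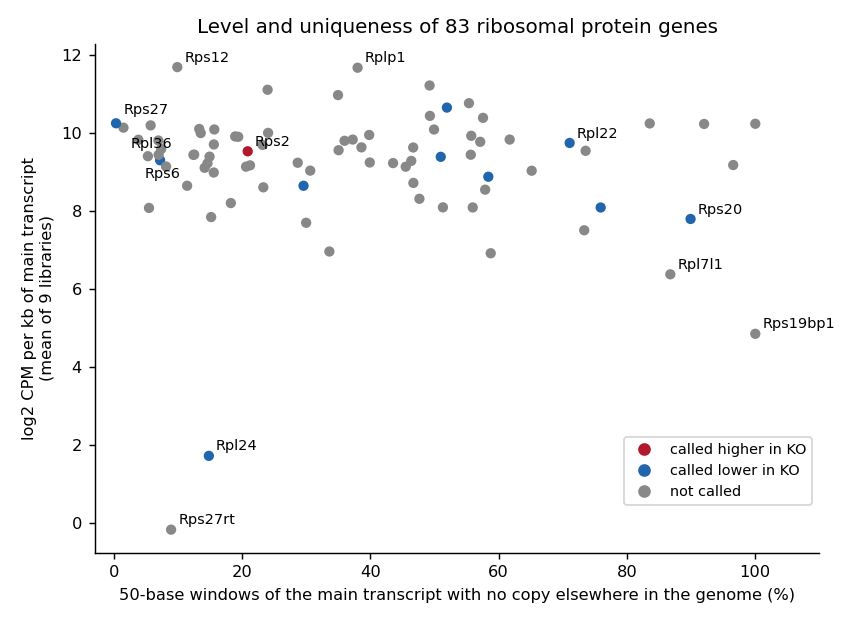
Share of windows of 50 bases of each member's main transcript that occur nowhere else in the genome (horizontal axis, percent) against its mean log2 CPM per kilobase of that transcript over the 9 libraries (vertical axis), 1 point for each of the 83 tested members. Some members with few unique windows, such as Rps27 at 0.338% and Rpl36 at 1.5%, stand at levels like those of members with many. Others, such as Rps27rt at 8.92% and Rpl24 at 14.8%, are among the lowest in level.

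Across the 83 members tested, the unique share and the level per kilobase of the main transcript had a Pearson r of −0.05 and a Spearman rho of −0.08, as a description over genes that share the same 9 libraries. Rps27 and Rps20, at the ends of the range of unique shares, had 338 to 628 and 657 to 1161 counts scaled to library size (CPM) over the libraries. All CPM here use library sizes scaled by trimmed-mean (TMM) factors. Counts of a member with a low unique share may still lack reads. Gene counts totalled 25367211 to 61110585 per library, so counting error is small for nearly all members: 78 of the 83 tested members had more than 100 CPM in the control mean.

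Reads with several alignments were 24.1% of all counts in both control libraries and 25.2% to 27.5% in the 7 KO libraries, all above the controls. Mitochondrially encoded genes took 0.980% to 1.72% of gene counts, with the highest share in KO2 replicate 3. The 7 epithelial markers summed to 3580 to 3784 CPM in the control and 4983 to 7193 in KO1. In KO2 the sum was 2113 to 4322, a range that holds both controls, so only KO1 stood apart. Single markers did not all move the same way. Krt7 stood at 767 and 812 CPM in the control, 2643 to 3348 in KO1 and 651 to 1455 in KO2, Cdh1 at 759 and 940 in the control and 354 to 670 in KO, and Krt5 at 0 in every library. The 4 endothelial and the 3 erythroid markers each summed to at most 1.68 CPM, the 7 fibroblast markers to 11.8 to 47.6 CPM, most of it Pdgfra, and the 6 immune markers to 2.06 to 28.5 CPM, most of it Cd68. The part of any of these in the results below was not tested. MaTAR25 itself was at 0.768 and 0.915 CPM in the control libraries and at 0 to 0.307 CPM in the KO libraries.

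The 83 members that passed the filter on low counts ranged widely in mRNA level, and most were among the abundant mRNAs of these cells. Control means ran from 0.470 CPM for Rps27rt to 2199 CPM for Rpl4, with a median of 523 CPM. The spread between libraries (SD as a percent of the mean) had a median over members of 2.95% in the control, 7.84% in KO1 and 14.4% in KO2. Rpl10l and Rpl39l, paralogs known for their expression in testis, had 0 counts in every library, and Rpl3l, a paralog of muscle, reached at most 0.0421 CPM. These 3 were not tested.

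Levels of different genes were compared per kilobase. Per kilobase of all annotated exons, the highest members were Rplp1 and Rplp0, which are proteins of the stalk that recruits elongation factors, and Rps15 and Rpl36. In the control libraries the log2 CPM per kilobase was 11.68 ± 0.11 (SD, n = 2) for Rplp1, 10.82 ± 0.02 for Rps15, 10.24 ± 0.12 for Rpl36 and 9.96 ± 0.02 for Rplp0. Rplp1 lay above Rps15 by more than their spread. In KO2, Rpl36 was at 9.99 ± 0.38 (SD, n = 4) and Rplp0 at 10.19 ± 0.26, so these neighbours did not differ beyond their spread there. Per kilobase of the main transcript alone, Rplp1 stayed highest in the control at 11.68 ± 0.11, and Rps12 followed at 11.46 ± 0.03, Rps15 at 11.16 ± 0.02 and Rpl41 at 10.74 ± 0.13. In KO2, Rps12 was at 11.84 ± 0.23 (SD, n = 4) and Rplp1 at 11.63 ± 0.35, a difference within their spread. The order within the set thus depends on the annotation, with a Spearman rho of 0.76 between both orders.

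At the lower end both lengths gave the same last 4 members. These were Rpl7l1, Rps19bp1, Rpl24 and Rps27rt, an intronless copy of Rps27, with control log2 CPM per kilobase of exon of 4.99 ± 0.04, 4.61 ± 0.19, 2.78 ± 0.06 and 0.33 ± 0.05 (SD, n = 2). The paralogs Rpl22l1 and Rpl36al also lay near the bottom.

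Taken as a sum, the 86 members held 5.24% and 5.30% of gene counts in the control libraries. They held 4.76%, 4.91% and 5.03% in KO1 and 4.89%, 4.57%, 5.19% and 4.69% in KO2. Every KO library lay below both controls, and the KO mean was 92.2% of the control mean. These shares were not scaled by TMM factors, which were 1.06 and 1.05 in the control and 0.936 to 1.03 in KO. On TMM-scaled CPM, the tested members' median log2 deviation from the control mean was −0.10, 0.02 and 0.09 in KO1. In KO2 it was −0.02, −0.17, 0.03 and −0.07, so KO libraries lay on both sides of the control. The part of composition in the lower shares was not tested. With mitochondrially encoded genes and the 10 highest genes left out of the total, KO2 replicate 3 was at 5.49%, between the controls at 5.47% and 5.53%, and the other 6 KO libraries lay below both. The sum is of counts and not per length, so it weighs the abundant and long mRNAs most. Rplp0 and Rpl4 each held 3.79% of the members' counts. The share of mitochondrial ribosomal protein genes was 0.281% and 0.287% in the control and 0.303% to 0.401% in the KO libraries. In bulk RNA, fewer cells that use a gene and less RNA per cell cannot be told apart.

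To ask whether loss of MaTAR25 came with a change in these mRNAs, the 7 KO and 2 control libraries were compared over the 15023 genes that passed the filter, with the quasi-likelihood test of edgeR. A gene was called at a Benjamini-Hochberg adjusted p under 0.1. In the KO libraries 10 of the 83 tested members fell (12%, where 10.7% of all genes tested were lower) and 1 member rose (1.20%, where 11.9% of all genes were higher). The share of members that fell was near that of all genes. In either direction 22.6% of all genes were called, against 11 of the 83 members. The median log2 fold change of the members was −0.01 and that of all genes 0.06, and 43 members lay below 0 and 40 above. By subunit, 6 of 48 tested 60S members and 4 of 33 tested 40S members fell, and the riser, Rps2, belongs to the 40S subunit. With KO1 and KO2 averaged as separate groups instead, 6 members were higher and 13 lower. The share of all genes called in that fit was not counted. Fewer members were called with either control library left out.

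**Figure D2:**
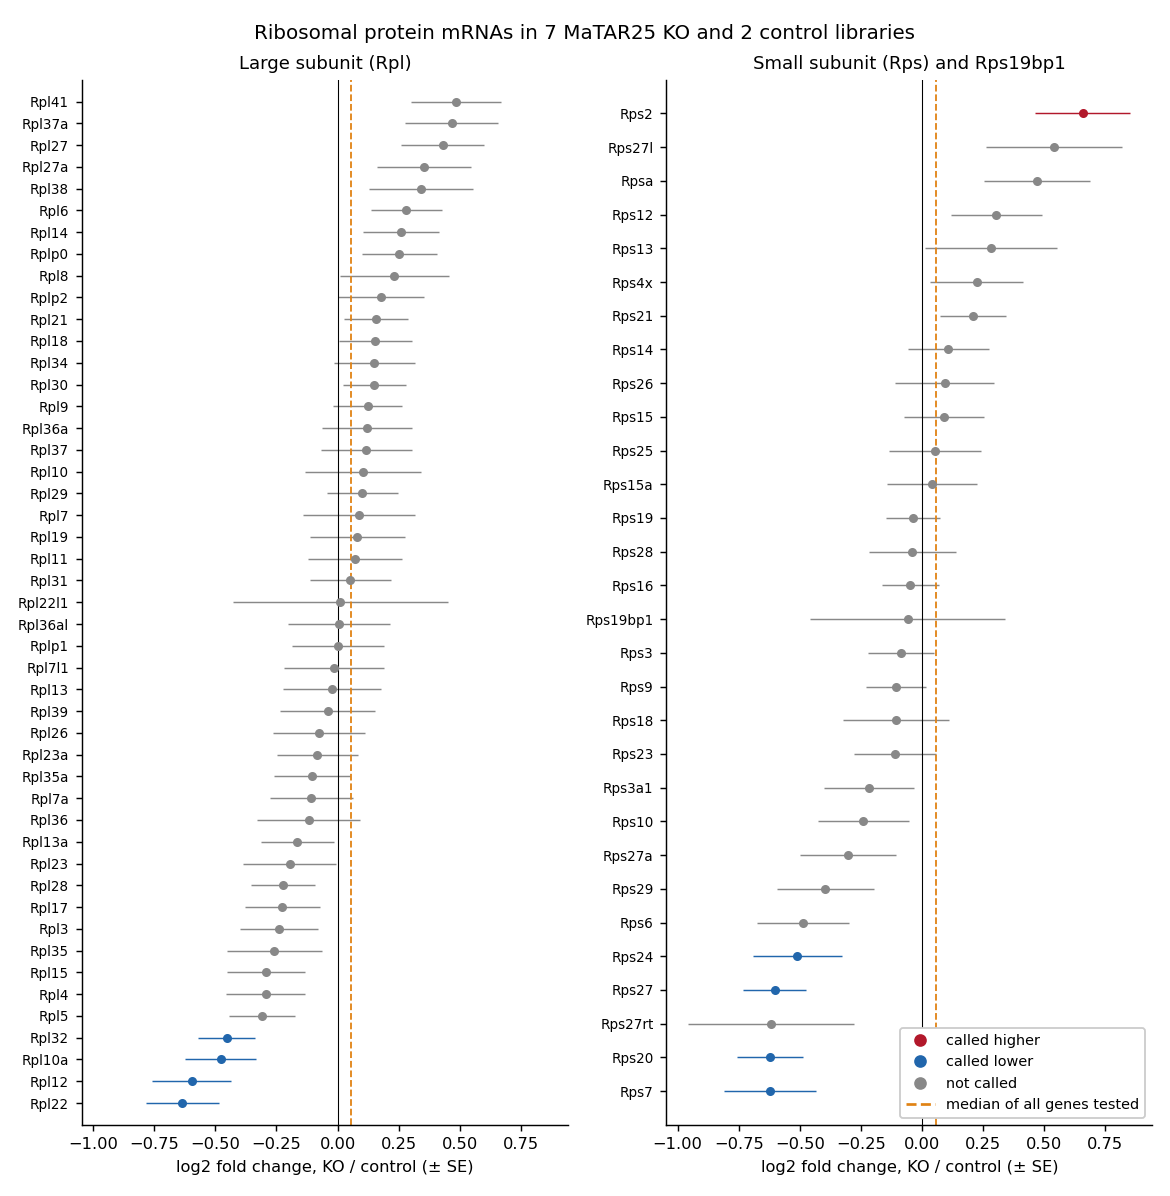
Log2 fold change (horizontal axis) of each tested member between the 7 KO and the 2 control libraries, with bars of 1 SE from the edgeR fit, in panels for the Rpl and the Rps symbols and colored by the call at an adjusted p under 0.1. Rpl24 (−2.07) lies outside the axis and is not drawn, nor are 5 members not reported here, the dashed line marks the median of all genes tested at 0.06, and the members spread on both sides of it.

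In 17 members (20.5%, where 17.6% of all genes tested did so) all 7 KO libraries lay below both controls. In 6 members (7.23%, where 16.9% of all genes did so) all lay above. The first group includes Rpl4, Rpl5, Rpl10a, Rpl12, Rpl15, Rpl22, Rpl24, Rpl28, Rpl32, Rps6, Rps7, Rps20, Rps24, Rps27 and Rps27rt. The second includes Rpl27a, Rpl37a, Rpl41 and Rps2.

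Of the 60S proteins that fell, Rpl12 sits at the base of the stalk and had 1115 and 1197 CPM in the control, 646, 667 and 694 in KO1, and 981, 828, 806 and 728 in KO2. No KO library reached the controls, and each KO1 library lay below each KO2 library. Its log2 fold change in KO was −0.60 (SE 0.16, edgeR adjusted p = 0.0340). Rpl22, an RNA-binding 60S protein that mice can live without, had 589 and 561 CPM in the control, 315, 351 and 373 in KO1, and 376, 469.9, 363 and 344 in KO2. The KO libraries lay below both controls with a log2 fold change of −0.63 (SE 0.15, edgeR adjusted p = 0.0189). Rpl32 had 1063 and 1060.5 CPM in the control, 758, 833 and 859 in KO1, and 761, 781, 737 and 697 in KO2. The control libraries differed by less than the KO libraries among themselves, and the log2 fold change was −0.45 (SE 0.12, edgeR adjusted p = 0.0275).

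Rpl10a, a protein near the exit site of tRNAs, had 633 and 561 CPM in the control and from 359.6 to 489.9 in KO, with a median of 430.1, and fell by 0.48 on the log2 scale (SE 0.14, edgeR adjusted p = 0.0495). Only 7.21% of the Rpl10a windows were unique in the genome. No KO library reached either control.

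Rpl24 showed the largest difference of all members, and its counts are uncertain. It had 7.29 and 6.90 CPM in the control, 1.40, 1.73 and 1.81 in KO1, and 1.73, 2.65, 1.72 and 0.818 in KO2, a log2 fold change of −2.07 (SE 0.36, edgeR adjusted p = 0.00562). These levels are far below those of other core 60S members. In GENCODE vM21, which is not the version used for counting, 71.5% of its main transcript lies in exons of Gm28037 on the same strand. Gm28037 had 0 counts in every library, and 14.8% of the windows of Rpl24 were unique. The part of the overlap in these counts was not tested. Similar overlap touches 59.3% of the main transcript of Rpl13a, the 60S protein known for its part in the interferon-induced GAIT complex, which had 843 and 870.4 CPM in the control, 705, 714 and 623 in KO1, and 833, 771, 799 and 906 in KO2, and was not called.

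Of the 40S proteins that fell, Rps20 had 1149 and 1161 CPM in the control, 657, 677 and 706 in KO1, and 838, 857, 813 and 708 in KO2. All KO libraries lay well below the controls, and all KO1 libraries below all KO2 libraries. The log2 fold change was −0.62 (SE 0.14, edgeR adjusted p = 0.0147). Rps27 had 535 and 628 CPM in the control, 351, 368 and 393 in KO1, and 409.8, 415, 338 and 406 in KO2. The log2 fold change was −0.60 (SE 0.13, edgeR adjusted p = 0.0137) and only 0.338% of its windows were unique. Which stretches the counted reads came from was not tested.

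Rps7, a 40S protein also known to bind MDM2, had 464 and 465 CPM in the control, 257, 248 and 271 in KO1, and 294, 292, 421 and 329.6 in KO2. The log2 fold change was −0.62 (SE 0.19, edgeR adjusted p = 0.0511), and the clones' libraries did not overlap. Rps24, whose gene is mutated in some cases of Diamond-Blackfan anemia, had 574 and 594 CPM in the control and from 329 to 524 in KO, with a median of 388. It fell by 0.51 on the log2 scale (SE 0.18, edgeR adjusted p = 0.0865).

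Rps2, which lies where mRNA enters the 40S subunit, was the 1 member that rose. It had 501 and 544 CPM in the control, 663, 756 and 854 in KO1, and 1099, 825, 889.9 and 682 in KO2. All KO libraries lay above both controls, with a log2 fold change of 0.66 (SE 0.20, edgeR adjusted p = 0.0486). Of its windows 20.9% were unique. Rpl41, the smallest ribosomal protein, also had every KO library above the controls, at 831 to 1315 CPM against 699 and 796, and had a log2 fold change of 0.49 that did not pass the test (SE 0.18, edgeR adjusted p = 0.105).

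**Figure D3:**
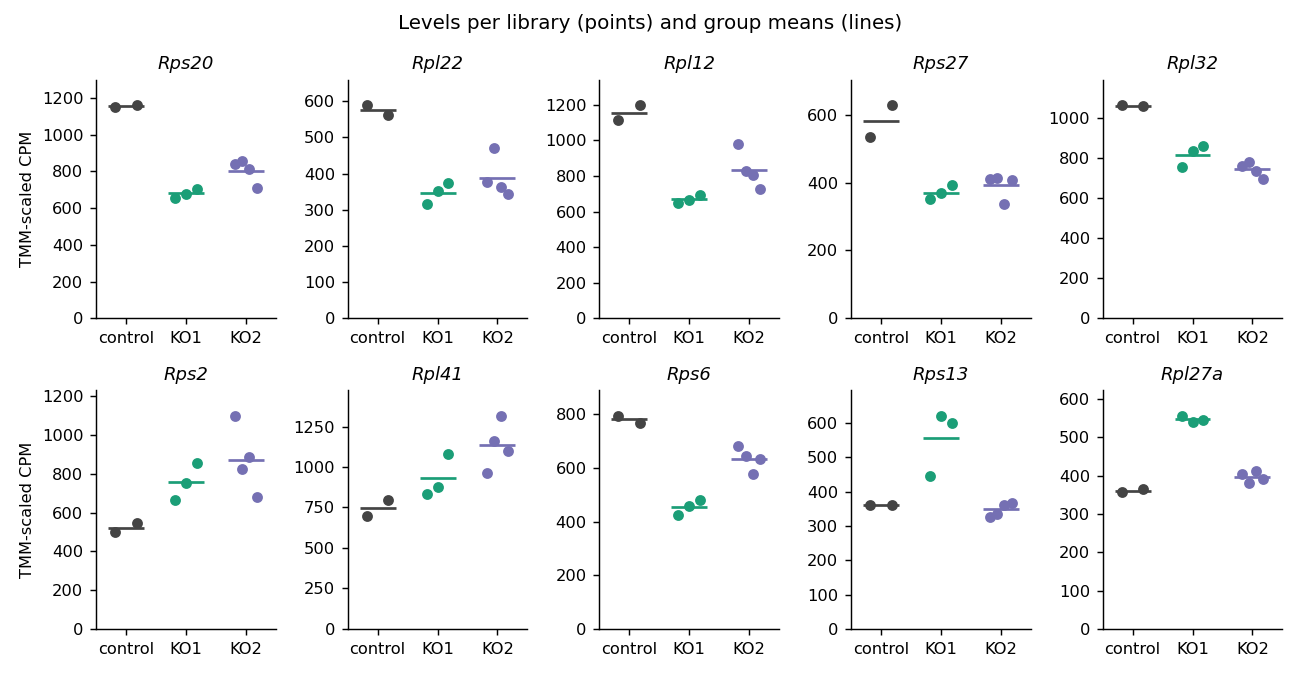
TMM-scaled CPM (vertical axes, which start at 0) of 10 members in each library, grouped as 4T1 control, MaTAR25 KO1 and MaTAR25 KO2, with 1 point per library and a line at the group mean. Rps20, Rpl22, Rpl12, Rps27, Rpl32 and Rps6 lie below both controls in all KO libraries and Rps2 and Rpl41 above, while the KO1 libraries of Rps13 and Rpl27a lie above all others.

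Each clone was then compared with the same 2 control libraries in a fit of the 3 groups, so both comparisons share controls and are not independent. In KO1, 15 members fell (18.1%, where 15.7% of all genes were lower) and 5 rose (6.02%, where 15.9% of all genes were higher), with a median of 0.01 over members and 0.02 over all genes. In either direction 31.6% of all genes were called, against 20 of the members. Among the 60S members that fell in KO1 were Rpl10a, Rpl12, Rpl15, Rpl22, Rpl24, Rpl32 and Rpl35, and among the 40S members Rps6, Rps7, Rps20, Rps24, Rps27 and Rps29. Rpl27a, Rplp2, Rps2, Rps13 and Rps27l rose. With the KO2 libraries left out of the fit, 16 members were higher and 19 lower. The share of all genes called in that fit was not counted, so these numbers cannot be read as particular to the members. Fewer members were called with either control library left out.

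Rps6 is the 40S protein phosphorylated by the S6 kinases downstream of mTOR. It had 794 and 769 CPM in the control, 426, 458 and 481 in KO1, and 682, 644, 579 and 635 in KO2. All KO1 libraries lay below all others, with a log2 fold change of −0.78 in KO1 (SE 0.13, edgeR adjusted p = 0.00398) and of −0.30 in KO2 (SE 0.12, edgeR adjusted p = 0.112). The 5.31% of unique windows apply to Rps6 as well. Rpl15, a 60S protein, had 383 and 374 CPM in the control, 261, 285 and 268 in KO1, and 320.1, 371, 298 and 359 in KO2, with a log2 fold change of −0.48 in KO1 (SE 0.14, edgeR adjusted p = 0.0358). Every KO library of Rpl15 lay below both controls. Rpl35, a protein by the exit tunnel, fell in KO1 by 0.52 on the log2 scale (SE 0.15, edgeR adjusted p = 0.0376), and 68.3% of its transcript overlaps Arpc5l and Wdr38 on the other strand. No source used here says whether the counting used strand.

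In KO2, 11 members fell (13.3%, where 15.0% of all genes were lower) and 2 rose (2.41%, where 16.5% of all genes were higher). The median was −0.04 over members and 0.03 over all genes. In either direction 31.4% of all genes were called, against 13 of the members. Among the 60S members that fell in KO2 were Rpl4, Rpl5, Rpl10a, Rpl12, Rpl22, Rpl24 and Rpl32, and the 40S members were Rps7, Rps20 and Rps27. Rps2 and Rpl41 rose. Without 4T1 control replicate 1 or replicate 2 the calls numbered 2 and 1.

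Rpl4, which lines the exit tunnel, had 2240.4 and 2158 CPM in the control, 1849, 2089 and 2149 in KO1, and 1711, 1792, 1412 and 1552 in KO2. The KO2 libraries lay below all others, with a log2 fold change of −0.44 in KO2 (SE 0.14, edgeR adjusted p = 0.0438). Rpl5 forms the 5S particle with 5S rRNA and Rpl11, which restrains MDM2 when ribosome assembly is disturbed. It had 665 and 659 CPM in the control, 597, 565 and 525 in KO1, and 527, 478, 595 and 453 in KO2. The log2 fold change was −0.37 in KO2 (SE 0.14, edgeR adjusted p = 0.0917), and 46.6% of its transcript overlaps Fam69a on the other strand. Rpl11 was not called in either clone. In KO2, Rpl41 had 964, 1161, 1315 and 1100.1 CPM, with a log2 fold change of 0.60 (SE 0.17, edgeR adjusted p = 0.0331).

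The difference between the clones was tested directly, without the controls in the contrast. In KO1, 5 members were higher than in KO2 (6.02%, where 9.43% of all genes were higher) and 4 were lower (4.82%, where 10.2% of all genes were lower). In either direction 19.6% of all genes were called, against 9 of the members. The higher members were Rps13, Rpl27a, Rps15a, Rplp2 and Rps27l and the lower members Rps6, Rpl13, Rpl35 and Rpl11. Rps13 had 359.7 and 359.8 CPM in the control, 446, 620.4 and 601 in KO1, and 327, 336, 362 and 367 in KO2. Only the KO1 libraries stood apart, and the clones differed by 0.68 on the log2 scale (SE 0.14, edgeR adjusted p = 0.0175). Rpl27a had 356 and 366 CPM in the control, 556, 541 and 545 in KO1, and 404, 381, 413 and 392 in KO2, a difference of 0.46 (SE 0.10, edgeR adjusted p = 0.0219).

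Rplp2 of the stalk had 749 and 796 CPM in the control, 959.9, 1097 and 989 in KO1, and 773, 800.3, 791 and 711 in KO2, a difference of 0.40 (SE 0.11, edgeR adjusted p = 0.0450). Its stalk partners were not called in any comparison: Rplp0 ran from 1604 to 2466 CPM and Rplp1 from 1176 to 2120.2 CPM over the 9 libraries. Rpl13, a 60S protein, had 725 and 908 CPM in the control, 658, 656 and 684 in KO1, and 1037, 785, 930.0 and 875 in KO2. The KO1 libraries lay below all others, with a difference of −0.45 (SE 0.13, edgeR adjusted p = 0.0623). Without KO1 replicate 2, 2 members were called between the clones, and without KO2 replicate 3 there were 16. The share of all genes called in these 2 fits was not counted.

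The members called between the clones were set against their chromosomes. Rps13, Rpl27a, Rps15a and Rplp2 all lie on chromosome 7, which holds 14 of the 86 members, and Rps6 and Rpl11 on chromosome 4. The median log2 difference between KO1 and KO2 over the other 1073 genes tested on chromosome 7 was 0.24, over the other 942 on chromosome 4 it was −0.31 and over the other 804 on chromosome 8, where Rpl13 lies, −0.34. Each of the 9 members called lay on a chromosome whose other genes had a median of the same sign, as did 64 of all 83 tested members. For Rpl35 that median, over chromosome 2, was only −0.046. After the chromosome median was subtracted, the median difference of the 5 higher members went from 0.46 to 0.22 and that of the 4 lower members from −0.44 to −0.14.

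**Figure D4:**
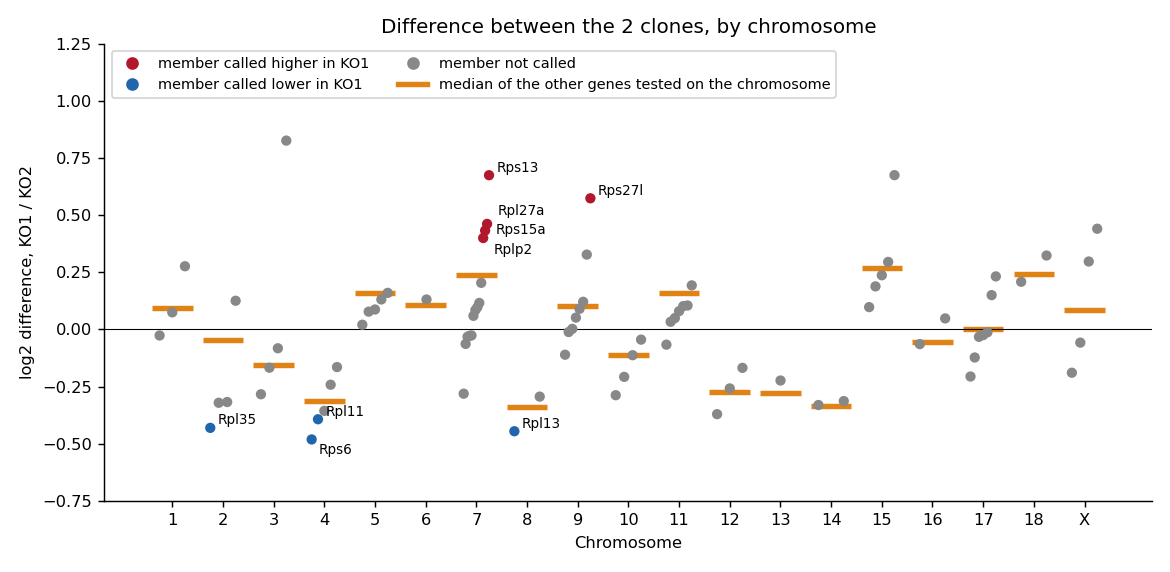
Log2 difference between KO1 and KO2 for each tested member (points, the 9 called members named) by chromosome, with a bar at the median over all other genes tested on that chromosome. The called members of chromosomes 7, 4 and 8 lie on the same side of 0 as the median of the other genes there, which is 0.24, −0.31 and −0.34.

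Over the 83 tested members, the log2 difference between the clones and the median of the other genes of the same chromosome had a Pearson r of 0.63 and a Spearman rho of 0.67, as a description over genes that share libraries and, within a chromosome, 1 median. In KO1 against control these were 0.52 and 0.50, and in KO2 against control 0.14 and 0.26. In KO1 the median over other genes was −0.46 on chromosome 4, −0.48 on chromosome 12 and −0.47 on chromosome 14. Of the 5 members on chromosome 4, 4 fell in KO1, as did 2 of the 3 tested on chromosome 12 and both on chromosome 14. Of all genes tested, 15.7% were lower in KO1, and the share of other genes called on each chromosome was not counted. Rpl15 of chromosome 14 fell by 0.48, and its difference from the chromosome median was −0.01. Rps20 of chromosome 4 lay 0.31 below its chromosome median in KO1 and 0.40 below it in KO2, and Rpl12 of chromosome 2 lay 0.64 and 0.36 below. What sets the chromosome medians was not tested.

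Several members are paralogs of ribosomal proteins or have a second function. Rps27l, a paralog of Rps27 known as a p53 target, had 72.7 and 66.2 CPM in the control, 112, 118 and 143 in KO1, and 79.6, 111, 72.3 and 71.0 in KO2. It rose in KO1 with a log2 fold change of 0.84 (SE 0.22, edgeR adjusted p = 0.0249), while its value in KO2 was 0.27 (SE 0.21), and 73.3% of its windows were unique. Rpl22l1, the paralog that Rpl22 is known to repress, had 69.9 and 77.8 CPM in the control, 120.3, 113 and 64.1 in KO1, and 38.5, 32.9, 81.9 and 70.0 in KO2. The groups overlapped in every comparison, and with an SE of 0.44 in KO it was not called. Rpl36al ran from 90.6 to 158 CPM and Rps4x, the X-linked form of Rps4, from 858 to 1367 CPM, neither called. Rpsa, also known as the laminin receptor, had 1215 and 1269.5 CPM in the control and from 1203 to 2326 in KO, with an SE of 0.22 on a log2 value of 0.47. Rps27a, a fusion of ubiquitin with a 40S protein, had 763 and 689 CPM in the control and from 489 to 771 in KO, and was not called.

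Splitting the members by how unique they are gave 6 lower (24%) and 0 higher among the 25 tested members with at least 50% unique windows. Their median was −0.09 in KO. Among the 58 members under 50%, 4 were lower (6.9%) and 1 higher (1.72%), with a median of 0.01. The difference between these subsets was not tested. Members with a TOP tract at the RefSeq start had a median of −0.07 in KO (3 of 30 lower, 1 higher) and members without it 0.01 (4 of 33 lower, 0 higher). For both splits, 10.7% of all genes tested were lower in KO and 11.9% higher.

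Other genes of the pathway were taken from lists of known function. Fau and Rack1, ribosomal proteins that the rule on symbols leaves out, were not called, with log2 fold changes in KO of 0.03 (SE 0.14) and 0.09 (SE 0.14). Of 6 elongation factors, 1 rose (Eef1d), while Eef1a1 and Eef2, at 5198 to 7857 and 5746 to 8416 CPM, had values of −0.08 (SE 0.15) and −0.04 (SE 0.15).

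Of 52 ribosome assembly factors, 12 rose (23.1%, where 11.9% of all genes were higher) and 1 fell (1.92%, where 10.7% were lower) in KO, with a median of 0.22. Nhp2, a protein of the H/ACA particles that modify rRNA, had 62.1 and 56.7 CPM in the control and 118 to 255 in KO, a log2 fold change of 1.73 (SE 0.29, edgeR adjusted p = 0.00496). Grwd1, a chaperone of Rpl3, had 31.2 and 28.2 CPM in the control and 60.3 to 93.9 in KO, a log2 fold change of 1.43 (SE 0.22, edgeR adjusted p = 0.00367). Sbds, which helps to free the maturing 60S subunit of an assembly factor, fell from 135 CPM in both control libraries to 66.5 to 103, a log2 fold change of −0.82 (SE 0.17, edgeR adjusted p = 0.0122). Npm1 and Ncl, abundant nucleolar proteins, were not called. Of 14 RNA polymerase I genes, 2 rose and 2 fell.

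Of 44 tested initiation factors, 10 rose (22.7%, where 11.9% of all genes did) and 3 fell (6.82%, where 10.7% did), among them Eif4g1 with a log2 fold change of 1.06 (SE 0.15, edgeR adjusted p = 0.00258) and Eif1 with one of −1.0 (SE 0.14, edgeR adjusted p = 0.00246). Of 20 other genes with TOP mRNAs, 3 rose (15%, near the 11.9% of all genes) and 0 fell, with Pabpc1 at 0.70 (SE 0.15, edgeR adjusted p = 0.0121). Among 11 regulators of these mRNAs, Myc fell by 1.13 on the log2 scale (SE 0.27, edgeR adjusted p = 0.0205), Eif4ebp1, a repressor of cap-dependent translation, fell by 1.02 (SE 0.16, edgeR adjusted p = 0.00376), and Larp1 rose with a value of 0.52 (SE 0.18, edgeR adjusted p = 0.0773).

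For the mitochondrial ribosomal proteins the same fits gave more calls. In KO, 25 of 76 tested genes rose (32.9%, where 11.9% of all genes did) and 2 fell (2.63%, where 10.7% did). Their median log2 fold change was 0.41, against −0.01 for the cytosolic members and 0.06 for all genes. In KO1, 33 of 76 rose (43.4%, where 15.9% of all genes did) and 2 fell (2.63%, where 15.7% did). In KO2, 25 of 76 rose (32.9%, where 16.5% of all genes did) and 3 fell (3.95%, where 15.0% did). Mrpl41 had 11.5 and 11.1 CPM in the control and 26.6 to 38.3 in KO. The unique share of the 2 sets differed as given above, and its part in this difference was not tested.

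**Figure D5:**
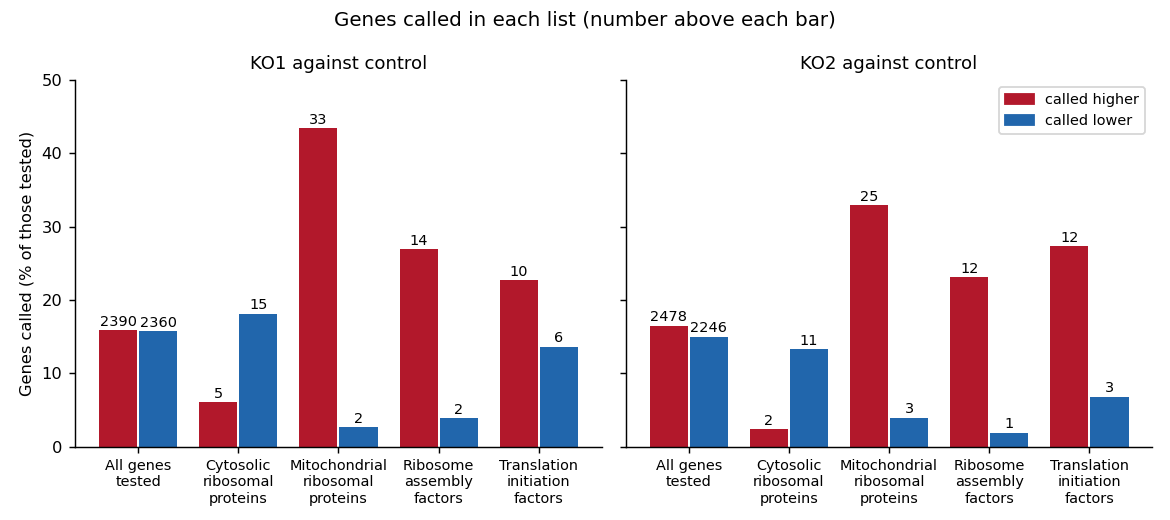
Percent of tested genes (vertical axis) called higher and lower in KO1 and in KO2 against the 4T1 control (edgeR, adjusted p under 0.1) for all genes tested, the cytosolic and mitochondrial ribosomal proteins, ribosome assembly factors and initiation factors, with the number of genes above each bar. Of the cytosolic members 6.02% in KO1 and 2.41% in KO2 were higher, where 15.9% and 16.5% of all genes were.

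ChIRP, in which biotinylated probes against MaTAR25 pull down the chromatin it touches, gave 4 peak lists from pooled libraries, of the even, odd and total probe sets in 4T1 and the total set in NDL cells. A peak within 1 kb of the start to which the list assigns it was found for 3 of 78 members in 4T1-even (10.3% of protein-coding genes had one), 1 of 86 in 4T1-odd (9.85%), 3 of 86 in 4T1-total (12.9%) and 4 of 86 in NDL-total (12.2%). Genes on chromosomes 2 and 3 were left out of 4T1-even because that list has 0 peaks on chromosome 3 and 8877 on chromosome 2. Rpl8, a protein of the peptidyl transferase centre, had a peak in 3 lists, at chr15:76903690-76904189 (mm10) in 4T1-total with a score of 95.8. Rps7 also had one in 3 lists, at chr12:28633171-28633670 in 4T1-total with a score of 62.4. This peak lies inside the gene, which spans chr12:28630854-28635953 on the minus strand, and not at the start window shown above. Rpl18 and Rps9 had one in 2 lists each and Rplp2 in 1, and no member had one in all 4. The Rplp2 peak, at chr7:141451329-141451828, overlaps the end of its gene, which spans chr7:141447370-141451585 on the plus strand. The start in the list can thus differ from the start shown above. Of these 5 genes only Rps7 was called in KO against control. Pooled lists allow no replicate test.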

How the data were processed

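Poly(A) RNA (TruSeq) was sequenced single-end. The authors aligned reads with STAR to GRCm38, counted them per GENCODE vM5 gene with HTSeq-count and deposited raw counts. For versions, strand setting, read length and whether a read with several alignments was written once, the sources used here give nothing. The deposited KO2 replicate 2 file lists each gene 3 times with the same count, which was used once. HTSeq classes outside genes were left out of library sizes. Counts were filtered with filterByExpr, scaled by TMM and tested with edgeR 4.0.16 in R 4.3.3 (quasi-likelihood, Benjamini-Hochberg, threshold 0.1), in a fit of KO and control and a fit of control, KO1 and KO2. The fits were tested on simulated data. Shares of counts carry counting error besides the spread shown.

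Alternatives were DESeq2 1.42.0, other size factors, filters, samples and threshold, a replicate block and each library left out. Transcripts and exon overlaps are from GENCODE vM21. The authors deposited ChIRP peak lists called with HOMER on pooled libraries (mm10), whose peak score and distance to a start were used as listed.

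The members, lists and tests were chosen with earlier results of these data known. Named were up to 6 called members per direction and comparison by p, the stalk, the 5S particle, paralogs and a few others, the 4 highest and lowest per kilobase and the 4 least unique. Of genes outside the members, MaTAR25, Fau, Rack1, Myc, Eef1a1, Eef2, Npm1, Ncl and Larp1 were fixed. Some genes are not reported here. Any other gene or member was named after its values were seen.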

Additional observations from a re-analysis of the deposited data

Results flagged for a closer look

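Within KO2, the 1 group large enough for a test of single libraries, 37 items were tested with Dixon's criterion and 3 members had 1 library far from the other 3, where chance flags about 1 in 20 groups. Rpl39 had 128 CPM in KO2 replicate 1 and 159 to 163 CPM in the others. Rps27 had 338 CPM in KO2 replicate 3 and 406 to 415 CPM in the others. Rps27a had 771 CPM in KO2 replicate 3 and 489 to 526 CPM in the others. KO2 replicate 3 also had the highest shares of reads with several alignments and of mitochondrially encoded counts.

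The clones KO1 and KO2 differed in 9 members by edgeR's test of the difference (adjusted p under 0.1). The log2 difference of KO1 from KO2 was 0.68 for Rps13 (adjusted p = 0.0175), 0.46 for Rpl27a (0.0219), 0.43 for Rps15a (0.0375), 0.40 for Rplp2 (0.0450) and 0.57 for Rps27l (0.0690). It was −0.48 for Rps6 (0.0268), −0.45 for Rpl13 (0.0623), −0.43 for Rpl35 (0.0633) and −0.39 for Rpl11 (0.0902). All 9 lie on chromosomes whose other genes had a median difference of the same sign, as do 64 of all 83 tested members.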

How the results depend on the processing

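With 2 control libraries, the calls against control rest on both. Leaving out 1 library at a time, the members called ranged from 1 to 15 in KO (11 with all libraries; 1 without either control library), from 6 to 25 in KO1 (20; 6 and 8 without 4T1 control replicate 1 and 2), from 1 to 17 in KO2 (13; 2 and 1 without control replicate 1 and 2) and from 2 to 16 between the clones (9; 5, 2 and 5 without KO1 replicate 1, 2 and 3, and 16 without KO2 replicate 3). The average of the clones in the fit of 3 groups gave 19 calls in KO, and a fit of only the groups compared gave 35 in KO1. The share of all genes called under each alternative was not counted, so these numbers describe the members alone. At a threshold of 0.05, 5 members were called between the clones. With the replicate block 4 were called there, and 8 in KO in place of 11, all lower, while same-numbered libraries had correlations of their deviations from group means of −0.15 to 0.04, so that they share only a number. With library totals and no composition factor, the members' medians were −0.11 in KO, −0.079 in KO1 and −0.14 in KO2, and the block gave −0.063 in KO1. These were the 4 of 56 medians that moved by more than the spread between libraries. Of the 630 values of named members under the alternatives, 536 kept their call, 94 lost it and 0 reversed. Rpl24 in all comparisons with control, Rps6, Rps7, Rps20 and Rpl12 in KO1, and Rps13 and Rpl27a between the clones kept it in all 18. Leaving out 1 library at a time, the KO share of gene counts was 91.2% to 93.1% of the control share, and it was 93.0% without mitochondrially encoded and the 10 highest genes, where KO2 replicate 3 lay between the controls. The median unique share was 28.4% with windows of 36 bases and 46.6% with 75. Within 5 kb, ChIRP peaks were found for 14 members in 4T1-even, 10 in 4T1-odd, 16 in 4T1-total and 14 in NDL-total (17.9%, 11.6%, 18.6% and 16.3% of members, where 31.3%, 29.7%, 36.3% and 34.8% of protein-coding genes had one). At a score of at least 100 there were 0, 0, 0 and 1, where 1.97% to 3.65% of protein-coding genes had one. The cause of these differences was not tested.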
